A study of Mus musculus with 6 samples.

Results

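The 10 genes described here are lipoprotein and fatty acid carriers of glia: the lipid carriers Apoe and Clu, the sterol exporters Abca1 and Abcg1, the lipase Lpl, the receptors Vldlr and Lrp1, the fatty acid binding proteins Fabp5 and Fabp7, and the acyl-CoA synthetase Acsbg1. They were taken by symbol from a table of 26264 genes, and all 10 were found and passed the filter on low counts. The table holds RNA counts of 6 libraries from spinal cord neural stem cells of C57BL6J background in which GFP reports Pdgfra, the receptor gene by which oligodendrocyte precursors are usually known. All cultures were grown with EGF and FGF2 and separated by flow sorting into GFP-positive (GFPpos) and GFP-negative (GFPneg) cells, with 3 libraries of each. The labels give the genotype as PDGFRaGFP/+ for GFPpos and PDGFRaGFP/- for GFPneg samples, and whether this marks a genotype or the sorted fraction is not given in the sources used here. The age of the animals and the number of animals behind a culture are not given either. The comparison asks which genes differ between reporter-positive and reporter-negative cells of these cultures.

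In the central nervous system, glia supply lipid to other cells and to themselves on lipoprotein particles. Apolipoprotein E, the product of Apoe, is the main protein of these particles in astrocytes, and clusterin, the product of Clu, is another. ABCA1 and ABCG1 load cholesterol and phospholipid onto such particles, and lipoprotein receptors at the cell surface take the particles up. Inside the cell, fatty acid binding proteins carry fatty acids through the cytosol, and acyl-CoA synthetases activate them for use. Fabp7 is known as a marker of radial glia and neural progenitors, and Acsbg1 is known as an astrocyte-enriched gene.

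Of the 10 genes, 8 were lower and 2 were higher in GFPpos cells by edgeR's quasi-likelihood test, with an adjusted p below 0.05 as the threshold (Benjamini-Hochberg over all tested genes). The lower genes were Clu, Acsbg1, Apoe, Fabp7, Lpl, Abca1, Vldlr and Fabp5, and the higher genes were Abcg1 and Lrp1. Over all 14554 genes tested, 55.4% passed the same threshold, 29.2% as lower and 26.1% as higher, so a call alone sets a gene little apart here. A called difference of more than 1 on the log2 scale was found for 5 of the 10 genes and for 18.3% of all tested genes. The median log2 fold change (GFPpos minus GFPneg) of the 10 genes was -0.75, against -0.0058 for all tested genes. Between the fractions, values of 9 of the 10 genes did not overlap, as was the case for 64.2% of all tested genes, and Fabp5 was the exception. The 10 genes together took 0.238% to 0.259% of the counts of GFPpos libraries and 0.485% to 0.606% of the counts of GFPneg libraries.

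**Figure D1:**
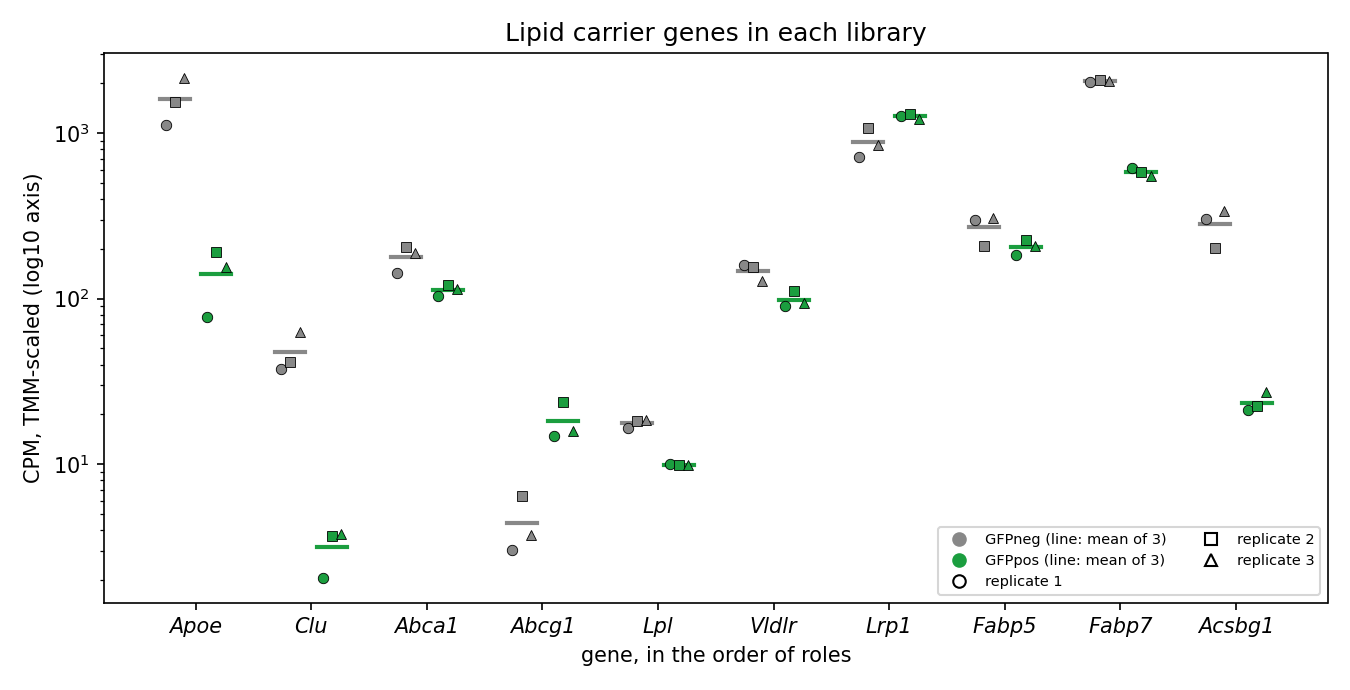
Level of each of the 10 genes in each of the 6 libraries, in CPM (counts scaled with TMM to a common library size, log10 axis), with grey for GFPneg, green for GFPpos, symbols for the replicate number and lines for the mean of 3 libraries. Apoe, Clu and Acsbg1 stand furthest below the GFPneg libraries, Abcg1 stands above them, and the Fabp5 values of the fractions overlap.

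Libraries held 31067850 to 45207335 counts. Pdgfra, the gene behind the sort, was at 205 to 245 CPM in GFPpos and 8.04 to 19.3 CPM in GFPneg libraries. The sorted cells were checked against marker lists. For comparison, 26.1% of all tested genes were called higher and 29.2% lower in GFPpos cells. All 10 of 10 listed oligodendrocyte precursor genes (Pdgfra included) were higher in GFPpos cells, where they summed to 4703 to 4932 CPM against 2256 to 2569 CPM. Olig1, at a mean of 2108 against 1488 CPM, and Olig2, at 861 against 543 CPM, weigh heavily on these sums. Their log2 fold changes were 0.50 and 0.66, against a median of 3.16 for the list. All 10 tested of 11 listed astrocyte genes were lower, with sums of 472 to 606 CPM in GFPpos and 3497 to 4375 CPM in GFPneg libraries. Of 8 neural stem cell genes, 6 were lower and 1 was higher, with sums of 2422 to 2805 and 4601 to 5233 CPM. In these bulk samples, fewer cells of a type and less RNA per cell cannot be told apart, and the part of astrocyte-like cells in the differences below was not tested. Microglia, which also express Apoe and Lpl, left almost no signal: their 11 markers summed to 0.490 to 1.20 CPM in GFPpos and 0.607 to 2.65 CPM in GFPneg libraries, with C1qa, C1qb, C1qc and Trem2 at 0 in all 6 libraries. The 8 endothelial markers summed to 1.39 to 2.26 and 2.58 to 9.85 CPM, with Cldn5 and Ly6c1 at 0. The 9 fibroblast and mural markers summed to 1.28 to 9.80 and 10.7 to 107 CPM, highest in GFPneg replicate 2, where the collagen gene Col3a1 alone was at 102 CPM. Without Col3a1 and the muscle myosin gene Myh11 the list was near 0: Col1a1 reached at most 1.30 CPM and Col1a2, Dcn, Lum, Pdgfrb, Rgs5 and Acta2 at most 0.414 CPM in any library. Of 5 tested of 8 neuron markers, 4 were higher in GFPpos cells and 0 lower, with sums of 86.6 to 95.4 against 19.96 to 36.6 CPM and Slc17a6 at 0. Of 3 tested of 7 mature myelin markers, 2 were higher (Mbp and Cnp), with sums of 205 to 226 against 126 to 177 CPM. The part of neuron and myelin markers in the differences below was not tested either. All 4 listed globin genes of erythroid cells were at 0.

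Promoter sequences are shown for 4 of the genes whose levels are described next, 3 that were lower by more than 1 on the log2 scale and Lrp1, which was higher. They are bases before the RefSeq start, 5′ to 3′ on the gene's own strand, from RefSeq with GRCm38.p6 coordinates (the counts were made on mm39). Bases that GENCODE M21 places in an exon were left off, so the Fabp7 stretch stops 42 bases short of the RefSeq start and the other 3 run up to it. For Apoe the start furthest upstream of those in the RefSeq table was used. RefSeq windows were at hand for 6 of the 10 genes. Capitals mark every match on either strand to one of 7 motifs, so that CCAAT on the opposite strand reads ATTGG. The general promoter motifs were the TATA box, written TATAAA, the GC box, written GGGCGG, and the box whose letters are its name, CCAAT. The others were the motif of RBPJ, the Notch effector, written GTGGGAA, and that of the SREBP sterol regulators, written TCACNCCAC. The palindrome of NFI factors was searched as TTGGC, then any 5 bases, then GCCAA. The repeat of the LXR sterol receptors was searched as 2 copies of AGGTCA with any 4 bases between.
Apoe, chr7:19699189-19699438, minus strand: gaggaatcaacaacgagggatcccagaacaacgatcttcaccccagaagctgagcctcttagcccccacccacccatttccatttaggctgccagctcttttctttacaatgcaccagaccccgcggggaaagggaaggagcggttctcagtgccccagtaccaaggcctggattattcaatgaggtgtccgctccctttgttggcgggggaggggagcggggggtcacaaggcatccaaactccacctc
Acsbg1, chr9:54661886-54662135, minus strand: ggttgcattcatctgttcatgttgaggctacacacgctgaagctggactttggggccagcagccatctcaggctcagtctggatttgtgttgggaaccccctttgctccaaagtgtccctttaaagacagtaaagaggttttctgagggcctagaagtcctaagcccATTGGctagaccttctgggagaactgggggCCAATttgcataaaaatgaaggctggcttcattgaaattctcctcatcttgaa
Fabp7, chr10:57784673-57784880, plus strand: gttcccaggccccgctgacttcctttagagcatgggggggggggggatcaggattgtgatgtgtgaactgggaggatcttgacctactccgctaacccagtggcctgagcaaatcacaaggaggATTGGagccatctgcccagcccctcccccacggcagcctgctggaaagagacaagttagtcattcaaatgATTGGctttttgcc
Lrp1, chr10:127621149-127621398, minus strand: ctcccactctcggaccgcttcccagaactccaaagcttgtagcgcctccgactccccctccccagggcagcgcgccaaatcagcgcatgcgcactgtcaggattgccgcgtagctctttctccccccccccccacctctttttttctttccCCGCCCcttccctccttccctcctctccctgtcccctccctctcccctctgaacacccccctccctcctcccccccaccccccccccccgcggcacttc
Distances below are counted from the RefSeq start, the 42 bases not printed for Fabp7 included. In the window of Acsbg1, CCAAT boxes lay 53 and 83 bases before the start, and in that of Fabp7 they lay 56 and 126 bases before it. At least 1 CCAAT box is found in 33.8% and at least 2 in 10.1% of all 32851 RefSeq windows of 250 bases. The Lrp1 window held a GC box 99 bases before the start, as do 32.7% of windows at any place. The Apoe window shown held none of the 7 motifs, and the window of an Apoe start further downstream held overlapping TATA matches. The RBPJ motif is in 5.42%, the SREBP motif in 1.05%, the NFI palindrome in 0.0365% and the LXR repeat in 0.0152% of all windows. These matches are a description of the letters and were not tested for binding.

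Apoe (Entrez 11816), the main apolipoprotein of astrocytes, stood at 77.7, 191 and 155 CPM in GFPpos replicates 1, 2 and 3 and at 1112, 1527 and 2146 CPM in GFPneg replicates 1, 2 and 3. The highest GFPpos library was still 5.83-fold below the lowest GFPneg library. The mean fell from 1595 ± 520.3 to 141 ± 57.7 CPM (SD, n = 3), or 11.3-fold. On the log2 scale this was -3.50 (SE 0.36, edgeR adjusted p = 0.000108). Apoe varied more between libraries of a fraction than most genes: its coefficient of variation was 40.9% in GFPpos and 32.6% in GFPneg cells, against medians of 4.83% and 7.01% over genes above 10 CPM. In each fraction, the library with the lowest Apoe also had the lowest astrocyte marker sum, and the library with the highest Apoe had the highest sum. The part of that sum in the Apoe values was not tested.

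Clu (Entrez 12759), which encodes the secreted chaperone and lipid carrier clusterin, had the largest log2 fold change of the 10 genes, at -3.89 (SE 0.28, edgeR adjusted p = 1.73e-05). It was at 2.07, 3.71 and 3.78 CPM in GFPpos and at 37.5, 41.5 and 63.2 CPM in GFPneg replicates 1, 2 and 3. The means were 3.19 ± 0.967 and 47.4 ± 13.8 CPM (SD, n = 3), a 14.9-fold difference. The GFPpos values rest on 76, 168 and 139 counts, so counting error alone is 7.72% to 11.5% of the value there. GFPneg replicate 3 was the highest library for both Clu and Apoe, and GFPpos replicate 1 was the lowest for both. Within a library, counts of Apoe exceeded those of Clu by a geometric mean of 42.9-fold in GFPpos and 33.3-fold in GFPneg cells. The ratio thus moved by 0.36 on the log2 scale, far less than either gene, although its values did not overlap between fractions (exact permutation p = 0.1, 2-sided, the smallest that 3 against 3 libraries allow, adjusted p = 0.1 over 4 ratios).

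The exporters moved in opposite directions. Abca1 (Entrez 11303), which moves cholesterol and phospholipid onto lipid-poor apolipoproteins, was at 103, 120.0 and 114 CPM in GFPpos and 143, 205 and 188 CPM in GFPneg replicates 1, 2 and 3. It was lower in GFPpos cells by 1.59-fold (log2 fold change -0.67, SE 0.13, edgeR adjusted p = 0.0024). Abcg1 (Entrez 11307), which exports sterol to particles that already hold lipid, was at 14.8, 23.8 and 16.0 CPM in GFPpos and 3.03, 6.44 and 3.73 CPM in GFPneg replicates 1, 2 and 3. Its mean was 4.13-fold higher in GFPpos cells, at 18.2 ± 4.92 against 4.40 ± 1.80 CPM (SD, n = 3), or 2.05 on the log2 scale (SE 0.29, edgeR adjusted p = 0.000605). Replicate 2 had the highest value of both exporters in both fractions. Counts of Abca1 were 42.3-fold those of Abcg1 in GFPneg libraries and 6.32-fold in GFPpos libraries (geometric means). This within-library ratio, which no scaling of libraries can shift, fell by 2.74 on the log2 scale, with no overlap between fractions (exact permutation p = 0.1, the smallest possible).

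Lpl (Entrez 16956), lipoprotein lipase, which frees fatty acids from triglyceride in lipoproteins, had low and even values. It was at 9.998, 9.96 and 9.93 CPM in GFPpos and 16.5, 18.1 and 18.4 CPM in GFPneg replicates 1, 2 and 3. The libraries of a fraction lay close together, within counting error in GFPpos cells, where 1 library holds 365 to 451 counts. The log2 fold change was -0.83 (SE 0.087, edgeR adjusted p = 0.000112), a 1.78-fold lower mean in GFPpos cells. Transcripts of Trim5 and Vmn2r120 match 204 and 227 bases of Lpl at 90% identity or more, which is 4.96% and 5.52% of its transcript. Trim5 and Vmn2r120 had at most 5 and 3 counts in any library, against 365 to 569 counts for Lpl. How reads shared with them were counted is uncertain.

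The receptors also moved in opposite directions, both by less than 1 on the log2 scale. Vldlr (Entrez 22359), a receptor for Apoe-bearing particles and for reelin, was at 90.8, 111 and 94.0 CPM in GFPpos and 159, 154 and 127 CPM in GFPneg replicates 1, 2 and 3. Its log2 fold change was -0.57 (SE 0.10, edgeR adjusted p = 0.00207), and the nearest libraries of the fractions differed by 1.15-fold. Lrp1 (Entrez 16971), a large endocytic receptor for Apoe and many other ligands, was at 1271, 1298 and 1218 CPM in GFPpos and 716, 1076 and 851 CPM in GFPneg replicates 1, 2 and 3. It was 1.43-fold higher in GFPpos cells (log2 fold change 0.52, SE 0.13, edgeR adjusted p = 0.0107), with the nearest libraries 1.13-fold apart. The Lrp1 call was lost without replicate 1 (adjusted p = 0.0563) and without replicate 3 (adjusted p = 0.0766). GFPneg replicate 2, the highest GFPneg library for Lrp1, was also the one with 102 CPM of Col3a1, while most other fibroblast and mural markers were near 0 there. The part of Col3a1-expressing cells was not tested. Without that library the Lrp1 value was 0.70 (adjusted p = 7.54e-05). The within-library ratio of Vldlr to Lrp1 counts was 0.0778 in GFPpos and 0.168 in GFPneg libraries (geometric means), a log2 difference of -1.11 with no overlap (exact permutation p = 0.1, the smallest possible).

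Of the fatty acid binding proteins, Fabp7 was the more clearly separated. Fabp7 (Entrez 12140), the brain-type protein of radial glia, was at 613, 581 and 552 CPM in GFPpos and 2043, 2087 and 2062 CPM in GFPneg replicates 1, 2 and 3. Its variation between GFPneg libraries was 1.08% of the mean, the smallest of the 10 genes there. The log2 fold change of -1.83 had the smallest standard error (0.063) and the smallest edgeR adjusted p (1.64e-06) of the 10 genes, and Fabp7 ranked as number 16 by p among all tested genes. Fabp5 (Entrez 16592), the epidermal-type protein, was at 184, 225 and 206 CPM in GFPpos and 297, 209 and 305 CPM in GFPneg replicates 1, 2 and 3. GFPneg replicate 2 fell among the GFPpos values, and Fabp5 was lower in GFPpos cells in 2 of the 3 same-numbered pairs. The log2 fold change was -0.40 (SE 0.14, edgeR adjusted p = 0.0423), close to the threshold. In 7 of the 9 leave-out fits (1 library, or 1 replicate number in both fractions) its call was lost, with adjusted p up to 0.32 and a log2 fold change of -0.25 without replicate 1, and was kept without GFPneg replicate 2 (log2 fold change -0.54, adjusted p = 0.000336). GENCODE M21 holds 5 partial copies of Fabp5 (at least 90% identity over 200 bases), none of them listed in the count table. Their longest matches cover 34% to 41.4% of the Fabp5 transcript, at 93.6% to 98.3% identity. How reads shared with these copies were counted is uncertain.

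The ratio of Fabp5 to Fabp7 counts was 0.300, 0.387 and 0.374 in GFPpos and 0.145, 0.1001 and 0.148 in GFPneg replicates 1, 2 and 3. It was therefore 2.72-fold higher in GFPpos libraries without overlap (exact permutation p = 0.1, the smallest possible). Fabp7 made up a smaller part of the pair in GFPpos cells although both genes were lower there.

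**Figure D2:**
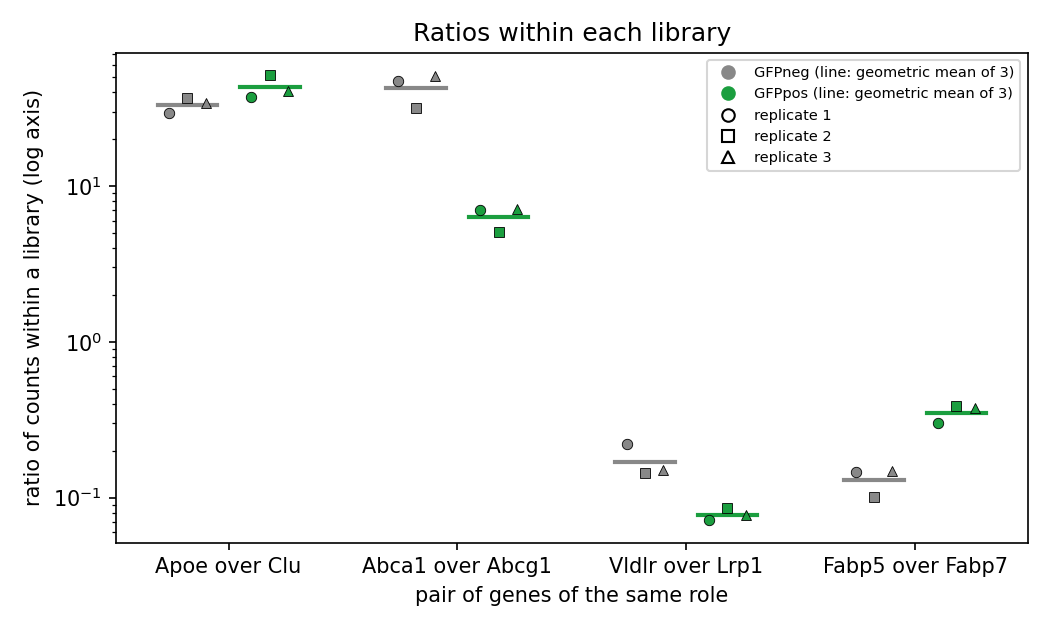
Ratio of counts of genes of the same role within each library (log axis), with grey for GFPneg, green for GFPpos, symbols for the replicate number and lines for the geometric mean of 3. The Abca1 to Abcg1 ratio differs most between fractions, at 42.3 against 6.32, and the Apoe to Clu ratio least, at 33.3 against 42.9.

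Acsbg1 (Entrez 94180), a synthetase that activates long-chain fatty acids, was at 21.2, 22.4 and 27.2 CPM in GFPpos and 303, 202 and 337 CPM in GFPneg replicates 1, 2 and 3. The lowest GFPneg library was 7.42-fold above the highest GFPpos library. The mean was 11.9-fold lower in GFPpos cells, at 23.6 ± 3.18 against 281 ± 70.4 CPM (SD, n = 3), or -3.57 on the log2 scale (SE 0.20, edgeR adjusted p = 5.92e-06). Its size was close to that of Apoe and Clu, and the 95% intervals of the 3 genes overlapped. GFPneg replicate 2 was the lowest GFPneg library for Acsbg1 and Fabp5 and the highest for Abca1, Abcg1, Lrp1 and Fabp7. Without it, log2 fold changes were -3.75 for Acsbg1, -0.55 for Abca1 and 2.44 for Abcg1, all still called.

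**Figure D3:**
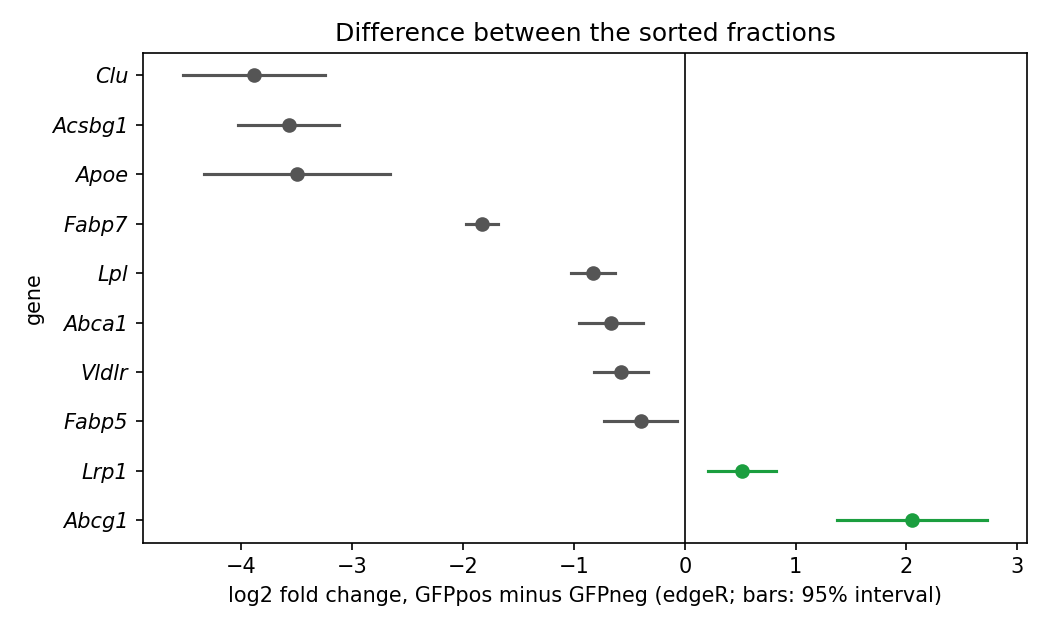
Log2 fold change of each gene (GFPpos minus GFPneg, edgeR) with its 95% interval, ordered by size, with grey below and green above 0. Clu, Acsbg1 and Apoe lie between -3.89 and -3.50, Fabp7 at -1.83, the next 4 genes between -0.83 and -0.40, and Lrp1 and Abcg1 at 0.52 and 2.05.

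Levels of different genes were set side by side per kilobase of the longest RefSeq-linked transcript in GENCODE M21. In GFPneg cells the order was Fabp7 (2567 CPM per kilobase), Apoe (1133), Fabp5 (274), Acsbg1 (97.4), Lrp1 (59.2), Clu (26.2), Vldlr (18.4), Abca1 (17.4), Lpl (4.30) and Abcg1 (0.754). In GFPpos cells it was Fabp7 (724 CPM per kilobase), Fabp5 (208), Apoe (100.2), Lrp1 (84.8), Vldlr (12.4), Abca1 (11.0), Acsbg1 (8.18), Abcg1 (3.12), Lpl (2.42) and Clu (1.76). Fabp7 thus led in both fractions, Apoe went from rank 2 to rank 3, and Clu from rank 6 to rank 10. Neighbours whose libraries overlapped were Acsbg1 and Lrp1 as well as Vldlr and Abca1 in GFPneg cells, and Apoe and Lrp1 as well as Vldlr and Abca1 in GFPpos cells. All other neighbours in the order were separated in every library.

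Other lipid-handling genes were read from 6 lists that hold none of the 10. Of 15 apolipoprotein and lipoprotein assembly genes, 8 were tested, 5 were lower and 0 higher in GFPpos cells (62.5% called, against 55.4% of all tested genes), with a median log2 fold change of -0.64. Pltp, a phospholipid transfer protein, was at 0.456 ± 0.160 against 7.14 ± 2.44 CPM (SD, n = 3), or -3.95 on the log2 scale (edgeR adjusted p = 6.15e-05). Mttp, which loads lipid onto nascent lipoproteins, had a value of -0.89, and Apoc1, a small exchangeable apolipoprotein, one of -2.74 at 0.126 against 0.865 CPM. The other lower members, named after their values were seen, were Lcat, which esterifies cholesterol on particles, at -1.80 with GFPneg libraries from 2.43 to 12.4 CPM, and Apoo, at -0.38. Without replicate 3, the count of lower members was 3.

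Lipoprotein receptors and adaptors were called in both directions, with 8 higher and 8 lower of 21 tested and a median of 0.092. The share called was 76.2%, against 55.4% of all tested genes. Lrp12 and Lrp11, which encode membrane proteins related to Lrp1, were higher by 0.88 and 0.93 on the log2 scale. Scarb1, a receptor for high-density lipoprotein, was at 28.6 ± 2.76 against 61.2 ± 2.87 CPM (SD, n = 3), a value of -1.09 (edgeR adjusted p = 2.3e-05). Cd36, a fatty acid and lipoprotein scavenger receptor chosen after its value was seen, had a value of -4.05 at only 0.170 against 2.95 CPM. Lrp8, the receptor closest to Vldlr in function and chosen in the same way, had 0.33 and did not pass (adjusted p = 0.0557). Mylip, a ubiquitin ligase that targets lipoprotein receptors and was also chosen after its value was seen, was higher by 1.13.

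The next list held sterol export and the liver X receptor (LXR) pathway, whose nuclear receptors are known to induce Abca1, Abcg1 and Apoe. Of its 24 tested genes, 9 were lower and 4 higher (median -0.23). The share called, 54.2%, was near the 55.4% of all tested genes. Abca7, a transporter related to Abca1, was at 62.5 ± 4.12 against 28.2 ± 0.738 CPM (SD, n = 3), a value of 1.15 (edgeR adjusted p = 8.09e-06). Gramd1a, a sterol carrier between membranes, was higher by 0.77. Lpcat3, a phospholipid-remodelling enzyme, had a value of -1.09. Of the receptors themselves, again chosen after their values were seen, Nr1h2 was at 53.1 against 56.1 CPM and did not pass (adjusted p = 0.382), and Nr1h3 was at 0.819 against 2.34 CPM, with a value of -1.51 (edgeR adjusted p = 0.00393).

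Among lipases and lipid droplet genes, 10 of 17 tested were lower and 2 higher (70.6% called, against 55.4% of all tested genes, median -0.50). Plin2, a coat protein of lipid droplets, had a value of -1.72 and Soat1, which esterifies cholesterol for storage, one of -0.96. Sel1l, a quality-control factor of the endoplasmic reticulum needed for Lpl maturation, was higher by 0.85, opposite to Lpl itself. Angptl4, a secreted inhibitor of Lpl, had a value of -3.75 at 0.423 against 5.88 CPM, and was chosen after its value was seen. Gpihbp1, which anchors Lpl on endothelium and was likewise named after its values were seen, was at 0 in all libraries.

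Of 19 tested genes for fatty acid binding and activation, 8 were lower and 2 higher (median -0.19). The share called, 52.6%, was near the 55.4% of all tested genes. Dbi, which binds acyl-CoA, was at 167 ± 7.02 against 655 ± 59.6 CPM (SD, n = 3), a value of -1.97 (edgeR adjusted p = 2.04e-06). Slc27a1, a fatty acid uptake protein with synthetase activity, had a value of -2.70, and Acsf2, an acyl-CoA synthetase of mitochondria, one of -3.81. Acsl1, another long-chain synthetase, was higher by 1.00, opposite to Acsbg1. Acsl3, Acsl4, Acsl5 and Acsl6, named after their values were seen, lay between -0.19 and 0.14 and did not pass. Fabp3, the heart-type relative of Fabp5 and Fabp7 and also named after its values were seen, was at 6.24 against 4.65 CPM and did not pass (adjusted p = 0.0549).

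The list of fatty acid oxidation and peroxisome proliferator-activated receptors (PPARs) had the highest share of calls, with 20 of 24 tested genes lower and 0 higher (median -0.88). The share called was 83.3%, against 55.4% of all tested genes, and 29.2% of all tested genes were called lower. Ppargc1a, a coactivator of mitochondrial genes, was at 9.24 ± 1.03 against 82.1 ± 14.4 CPM (SD, n = 3), a value of -3.15 (edgeR adjusted p = 3.03e-06). Acadl and Hadh, enzymes of beta-oxidation, had values of -2.06 and -2.02. Cpt1a, which admits fatty acids to mitochondria and was named after its value was seen, had -1.13. Cpt1b and Cpt1c of the same list, also named after their values were seen, had -0.43 and -0.093. Neither passed (edgeR adjusted p = 0.347 and 0.296). As the astrocyte markers were lower in the same libraries by a median of -2.91, the part of cell makeup in these lists was not tested.

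**Figure D4:**
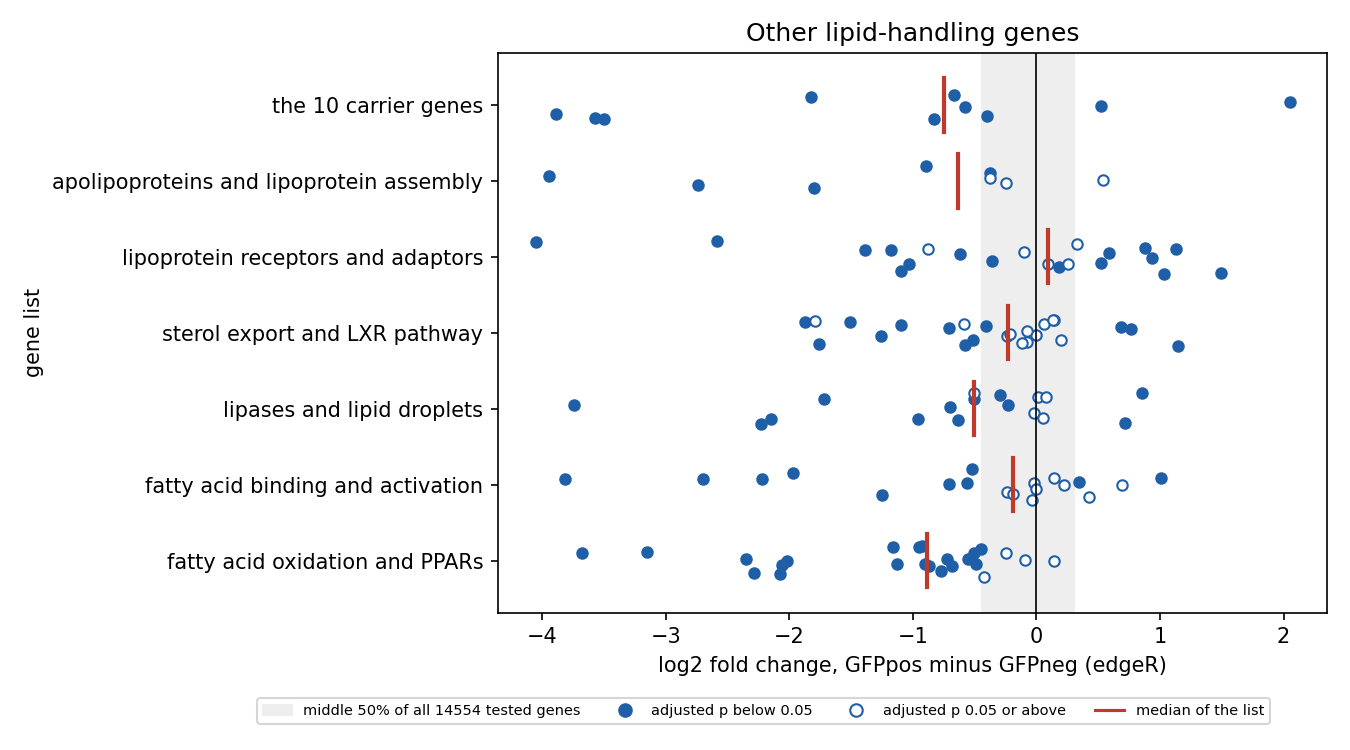
Log2 fold change (GFPpos minus GFPneg, edgeR) of each tested gene of the 10 carrier genes and of 6 other lists, with filled points for adjusted p below 0.05, red lines for list medians and a grey band for the middle 50% of all 14554 tested genes. The oxidation list lies almost wholly below 0, with a median of -0.88, while receptors and adaptors lie on both sides.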

How the data were processed

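RNA of 6 sorted samples was sequenced after library preparation with the SMART-Seq Stranded kit, per the labels' protocols. Among the tools in the submitters' processing notes are the aligner TopHat2 2.1.1 and the counter featureCounts 2.0.0, and the build named is mm39. Not given in the sources used here: the annotation, the strand setting and how reads with several matches were counted. Per the file headers, the deposited values are raw counts, which were not normalized. Groups came from the titles, which also number the samples 314, 315 and 316 (replicates 1, 2 and 3).

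Counts were scaled with TMM, filtered with filterByExpr (14554 genes left) and tested across all genes with edgeR 4.0.16 (R 4.3.3), using glmQLFTest and Benjamini-Hochberg adjustment. Standard errors were taken from the log2 fold change and its F value, and intervals use the moderated degrees of freedom. CPM were computed from the deposited counts. Nothing says that samples are separate cultures or animals, so p-values measure the spread between samples, which may be technical. The procedure was run on simulated counts in which all genes share the same relative spread beyond counting error. That run does not show how it performs for genes as variable as Apoe. Same-numbered samples of the fractions deviated together (correlations 0.218, 0.355 and 0.159, each above 0.1). The numbers were therefore taken to pair samples, but only in the replicate block. The main fit, its standard errors and intervals, and the permutation tests over libraries were unpaired. The 6 differently numbered pairs had correlations from -0.306 to 0.128, the highest close to the lowest same-numbered value. Alternatives were other scalings, filters and tests (DESeq2 1.42.0, limma 3.58.1 voom), a replicate block, and leaving out samples. Between libraries of 1 fraction, chi-square was 9.83 to 34.2 times its degrees of freedom, so none looked deposited more than once.

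The 10 genes and the lists were chosen with earlier results of these data known. Named besides the 10 are the 3 genes of each list with the smallest p and the called gene of opposite direction with the smallest p. Others are marked in the text as chosen after their values were seen. 1 gene of the receptor list is not reported here by name.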

Additional observations from a re-analysis of the deposited data

How the results depend on the processing

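All 10 genes kept their direction in all 17 alternative fits. All 10 kept their calls with RLE and upper-quartile scaling, median centring of TMM, no filter, a CPM of at least 1 in 3 libraries, DESeq2 and limma voom. With the replicate block 10 were called as well (8 lower, 2 higher), with Fabp5 at -0.38 (adjusted p = 0.0389) and Lrp1 at 0.54 (0.00207), and the block changed no call among them. In the 9 leave-out fits, 8 to 10 were called, of which 1 to 2 were higher and 7 to 8 lower. The losses were Fabp5 (7 fits) and Lrp1 (2 fits, without replicate 1 and without replicate 3). Over all genes, 2450 to 4169 were higher and 2951 to 4468 lower in these fits. Of the apolipoprotein list 3 to 5 were called. The 19 other genes named by rule kept direction and call in all 322 fits that gave a value. Apoc1 had none with the CPM filter. Differences of the 4 within-library ratios kept their sign without any 1 library, within pairs (replicate block: 0.36, -2.74, -1.11 and 1.44, exact p = 0.25, the smallest that 3 pairs allow) and with 0.5 counts added. Depth limits Clu in GFPpos and Abcg1 in GFPneg cells most, at 76 to 168 and 100 to 202 counts a library. Intervals cover the spread between these samples only.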

Other observations

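Apoe lies in a cluster of apolipoprotein genes, by the gene order of RefSeq GRCm38.p6. Its neighbours Apoc2 and Apoc4 had 0 counts in all 6 libraries, while Apoc1 stood at 0.054 to 0.191 CPM in GFPpos and 0.669 to 1.17 CPM in GFPneg libraries, on at most 36 counts a library. On the other side of Apoe, Tomm40, a subunit of the mitochondrial import pore, had a log2 fold change of -0.38 (edgeR adjusted p = 0.00318). The next gene, Nectin2, an adhesion molecule, was at 22.2 to 25.2 CPM in GFPpos and 22.1 to 22.4 CPM in GFPneg libraries and did not pass (adjusted p = 0.275). Beyond it, Bcam, another adhesion molecule, had a value of -1.26 (edgeR adjusted p = 0.002), and Cblc had at most 2 counts in any library. Of the 4 tested genes among these neighbours, 3 were thus lower, with values from -2.74 to -0.38, against -3.50 for Apoe itself. Over all tested genes, 29.2% were called lower, and a trend of the region was not tested.

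Fabp5 lies beside 4 genes of its own family. Pmp2, Fabp9, Fabp4 and Fabp12 had at most 13, 2, 0 and 4 counts in any library, and none passed the filter. On its other side, Pag1, a membrane adaptor of Src-family kinases, did not pass (adjusted p = 0.0576), and Zfp704, a zinc finger gene, was higher in GFPpos cells by 0.52 (edgeR adjusted p = 0.00255). Zbtb10 was also higher, by 0.30 (adjusted p = 0.0352), and Tpd52 had a value of -0.88 (edgeR adjusted p = 0.00058).

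Fabp7 has Smpdl3a, a phosphodiesterase gene, next to it, with a log2 fold change of -1.09 (edgeR adjusted p = 8.86e-05). On its other side, Pkib, an inhibitor of protein kinase A, reached at most 1.40 CPM in any library, with a value of -1.24 (edgeR adjusted p = 0.0395). Beyond it, Serinc1 had 0.11 and did not pass (adjusted p = 0.101), and Hsf2, a heat shock factor, was higher by 0.48 (edgeR adjusted p = 0.00022). The fourth gene on that side, Gja1, the main gap junction gene of astrocytes, was at 3.05 to 8.37 CPM in GFPpos and 52.7 to 116 CPM in GFPneg libraries. Its log2 fold change was -3.80 (edgeR adjusted p = 0.000109). These paragraphs cover the 4 protein-coding genes on each side of Apoe, Fabp5 and Fabp7, apart from 4 genes that had no value or at most 5 counts in any library. These 3 genes were chosen after the values of all neighbours were seen.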
